A study of Homo sapiens with 12 samples.

Results

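Glycogen metabolism was followed through 9 genes, PPP1R3A, PPP1R3C, GYS1, GYG1, GBE1, UGP2, PYGM, PYGB and PHKA1, taken from the 61806 genes of the deposited RNA-seq table by their gene symbols. The set was chosen by measured values of these same data, in the first place the FPKM of PPP1R3A in one Day 12 library, where it was nearly absent, so the levels in that library are a description and were not tested. The libraries came from H1, a line of human embryonic stem cells of wild-type genotype, differentiated toward cardiomyocytes. The study asked how dissociating and replating cells during differentiation affects their fate. All cultures were first induced to mesendoderm progenitors with CHIR99021, an activator of WNT signaling, followed by DF medium with insulin before Day 2. NP-IWP2 cells were not passaged and received IWP2, an inhibitor of WNT signaling. P-DF cells were taken apart on Day 2, plated again and stayed in DF medium without IWP2, while P-IWP2 cells, replated at the same time, received IWP2. P-DF and NP-IWP2 cells thus differed in passaging and in IWP2, and these libraries hold no static culture without IWP2. The parts of passaging and IWP2 in their differences cannot be told apart. Only the comparison of P-IWP2 with NP-IWP2 cells holds IWP2 constant. Each treatment was sampled on Day 12 and on Day 16 with 2 libraries, which gave 6 groups and 12 libraries from a single cell line. The labels do not say that the 2 libraries of a group came from separate cultures, so the p-values measure the spread between these libraries, which may be technical.

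Glycogen is a branched polymer of glucose that heart and skeletal muscle store as a quick fuel, and cardiomyocytes of the fetal heart are known for large glycogen stores. Glycogenin primes each particle, UGP2 supplies UDP-glucose, glycogen synthase extends the chains and the branching enzyme GBE1 adds the branch points, while glycogen phosphorylase, switched on by phosphorylase kinase, releases glucose units. Protein phosphatase 1 (PP1) turns synthesis on and breakdown off, and it is brought to the particle by targeting subunits of the PPP1R3 family, of which PPP1R3A is the form of striated muscle.

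Between 14885589 and 19176239 reads were counted on genes per library, with a median of 16452289. All 8 cardiomyocyte markers examined, among them TNNT2, MYH6 and MYL7, reached at least 1 FPKM (counts scaled by exon length and library total) in every library. Their summed level was 4376.17 to 4970.78 FPKM for NP-IWP2 and 4427.59 to 4594.26 for P-DF on Day 12, and 2635.06 to 3262.56 against 6515.37 to 6980.35 on Day 16. P-IWP2 cells on Day 16 had 8309.17 to 8551.04. The single markers did not all follow the sum on Day 16. MYH7 measured 694.6 and 350.85 FPKM in NP-IWP2 against 2612.72 and 2340.17 in P-DF, MYH6 436.31 and 417.17 against 108.86 and 70.98, and TNNT2 overlapped, at 74.81 and 87.84 against 106.0 and 78.73. The summed level of 7 hepatic markers was 407.77 to 827.92 FPKM in the 4 NP-IWP2 libraries and 5.71 to 20.07 in the 8 passaged libraries. That of 5 fibroblast markers was 298.13 to 537.1 against 16.37 to 19.22 in the 4 P-DF libraries, and that of 5 epicardial markers was 28.51 to 75.21 against 0.14 to 0.23. The endothelial sum, carried by KDR, was 160.6 to 223.87 in P-DF on Day 12 and 13.45 to 15.01 on Day 16. Of 11 skeletal muscle markers, ACTN3 alone reached 1 FPKM in any library, and MYF5 and MYH8 were at 0 FPKM in all 12. In bulk RNA, fewer cells of a type and less RNA per cell cannot be told apart, and the part that the cell types had in the differences below was not tested.

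The Day 12 library labelled P-IWP2 replicate 5 stood apart from its partner. Its cardiomyocyte markers summed to 2093.33 FPKM against 4244.98 in replicate 6, and its 5 epicardial markers to 133.99 FPKM against 0.28, led by TBX18 at 106.06 FPKM and TCF21 at 21.26. Of the 5 epicardial markers, 0 reached 1 FPKM in replicate 6 and 3 in replicate 5. Its 5 fibroblast markers summed to 215.41 against 21.18 FPKM, but 2 of them reached 1 FPKM in replicate 5 and 3 in replicate 6, so not all were higher. Its 5 endothelial markers did not move together either. KDR, which heart progenitors also express, measured 11.16 FPKM in replicate 5 and 232.51 in replicate 6, while CDH5 (2.6 against 0.03), PECAM1 (1.18 against 0) and TEK (1.45 against 0.04) were higher in replicate 5. This library enters the estimate of spread that all groups share, so tests are given with all 12 libraries and, where the call differs, also without it.

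Most of the 9 members were higher in passaged than in static cells on Day 16. PPP1R3C, GYS1, GYG1, GBE1 and PYGB were called in both passaged treatments and PHKA1 in P-DF cells. On the breakdown side PYGB was thus the only member called in both, and PYGM was called in neither. PHKA1 kept its call in 3 of the 12 fits that left out a library. Of 37 other glycogen genes tested, 5 were called higher for P-DF and 6 for P-IWP2, so most of these were not called. In P-DF against NP-IWP2 cells on Day 12, 0 of the 9 members passed edgeR's quasi-likelihood test at a Benjamini-Hochberg adjusted p of 0.05, where 4.01% of the 19505 genes tested did (0.697% higher, 3.32% lower). At an unadjusted p under 0.05 there were 2 of 9 members in edgeR, where 21.7% of all genes tested had one, and DESeq2 called 1 and limma 0. On Day 16, 6 of the 9 were higher in P-DF cells and 0 lower, against 15.3% of all genes called in either direction, 5.39% higher and 9.86% lower. P-IWP2 cells on Day 16, compared with the same NP-IWP2 libraries, had 5 members higher and 0 lower, against 17.1% of all genes called, 7.15% higher and 9.95% lower. The median log2 fold change of the 9 members was 0.58, 1.08 and 1.18 in these comparisons, where that of all genes tested was -0.0035, -0.015 and -0.030. The members and the wider list were chosen with earlier results of these data known. Their counts and medians beside those of all genes are therefore a description and not a test of enrichment. Without P-IWP2 Day 12 replicate 5 the members called were 6, 8 and 7, all higher, and the shares of all genes called were 21.9%, 32.4% and 34.8%. In FPKM, which carry no TMM scaling, the 2 libraries of each group did not overlap for 7 members higher and 1 lower in P-DF on Day 12, where 24.6% of all genes were higher and 41.2% lower. On Day 16 there were 8 higher and 1 lower in P-DF (18.8% and 50.2% of all genes) and 7 higher and 0 lower in P-IWP2 (16.2% and 50.7%). Leaving out other libraries lowered the Day 16 counts. For P-DF cells, 1 member was called without NP-IWP2 Day 16 replicate 2 or either P-DF Day 16 library, 2 without NP-IWP2 Day 16 replicate 1, 3 without any one of the 4 NP-IWP2 and P-DF libraries of Day 12, and 4 without P-IWP2 Day 16 replicate 6. For P-IWP2 cells, 1 was called without NP-IWP2 Day 16 replicate 2 or either P-IWP2 Day 16 library and 2 without NP-IWP2 Day 16 replicate 1. GYG1 was called in each of these fits. With library totals in place of TMM, the trimmed mean scaling of edgeR, the median log2 fold change of all genes on Day 16 moved to -0.25 in P-DF and -0.31 in P-IWP2 libraries, the members called were 1, 5 and 5, and all of these were still higher. Over all genes, library totals moved the share of calls that were higher on Day 16 from 35.3% to 16.3% in P-DF and from 41.8% to 17.6% in P-IWP2.

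**Figure D1:**
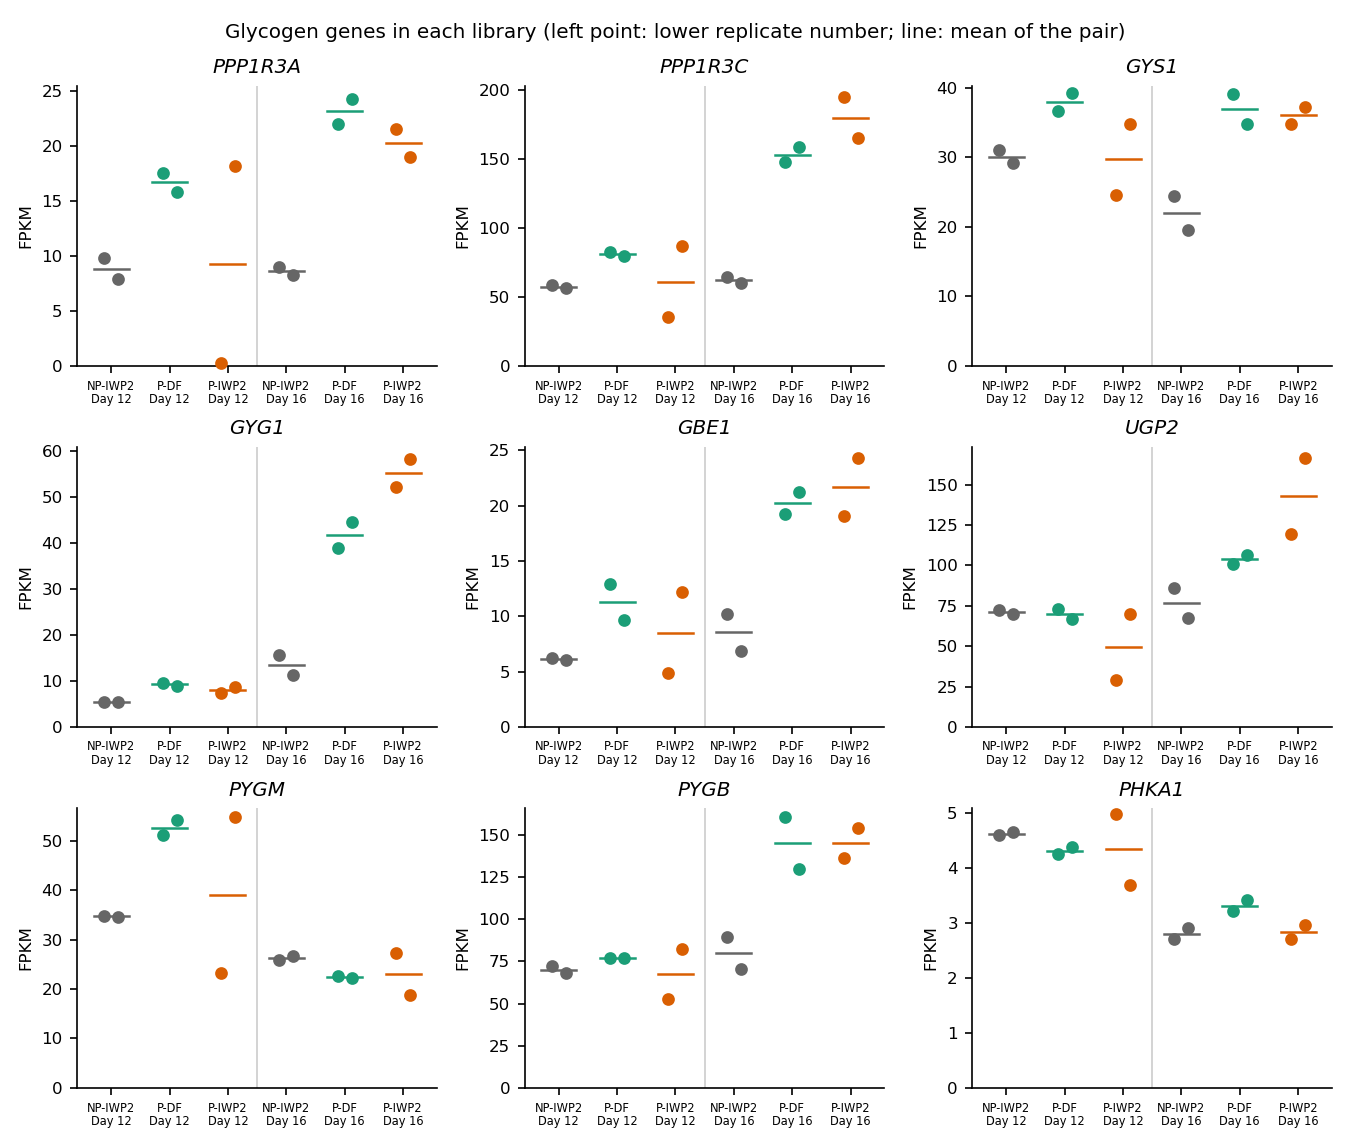
FPKM of the 9 glycogen genes in each of the 12 libraries. Each panel is a gene, the vertical axis is FPKM from 0, each point is a library, colored by treatment, and the line is the mean of the pair. PPP1R3A sits at 0.29 FPKM in P-IWP2 Day 12 replicate 5 and at 7.86 or more in the other 11 libraries.

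PPP1R3A, which carries PP1 to glycogen in striated muscle, had the widest range among the members, relative to its lowest library. On Day 12 its level was 9.80 and 7.86 FPKM in NP-IWP2, 17.50 and 15.82 in P-DF, and 0.29 and 18.15 in P-IWP2 replicates 5 and 6. On Day 16 it was 9.01 and 8.29 FPKM in NP-IWP2, 22.01 and 24.22 in P-DF, and 21.52 and 18.98 in P-IWP2 cells. Both P-DF libraries lay above both NP-IWP2 libraries on each day, and P-IWP2 replicate 6 lay above every other Day 12 library while replicate 5 lay below the other 11 libraries. The 0.29 FPKM of replicate 5 came from 21 reads, against 1387 reads in replicate 6.

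The gene lies on chromosome 7 (113876777 to 114075920, minus strand, GRCh38). By group mean its level ran from P-DF Day 16 (23.1 ± 1.56 FPKM, SD, n = 2) over P-IWP2 Day 16 (20.3 ± 1.80) and P-DF Day 12 (16.7 ± 1.19) to NP-IWP2 Day 12 (8.83 ± 1.37) and NP-IWP2 Day 16 (8.65 ± 0.51), whose ranges overlapped. P-IWP2 on Day 12 had a mean of 9.22 FPKM with an SD of 12.6, a mean that neither of its libraries was near.

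With all 12 libraries, the log2 fold change of PPP1R3A between P-DF and NP-IWP2 cells was 1.00 ± 1.07 (SE; adjusted p = 0.616 in edgeR's quasi-likelihood test) on Day 12 and 1.65 ± 1.08 (adjusted p = 0.331) on Day 16. Between P-IWP2 and NP-IWP2 cells on Day 16 it was 1.5 ± 1.08 (adjusted p = 0.360). None of the 3 passed, and the SE of about 1.07 was the widest among the members. Without P-IWP2 Day 12 replicate 5 the log2 fold changes were 1.00 ± 0.13, 1.64 ± 0.13 and 1.5 ± 0.13, with edgeR adjusted p of 9.67e-05, 7.43e-07 and 1.78e-06. The same comparisons passed when replicate 6 was left out in place of replicate 5, since either way the pair no longer adds to the spread. With all 12 libraries, PPP1R3A on Day 12 was called by edgeR without the filter on low counts (adjusted p = 1.17e-06) and not by DESeq2 (adjusted p = 0.731) or limma (adjusted p = 0.631). Over all 16 alternatives for that day the adjusted p of edgeR, DESeq2 or limma ranged from 1.17e-06 to 0.858.

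Over time the NP-IWP2 libraries of PPP1R3A overlapped, with a log2 fold change from Day 12 to Day 16 of 0.086 ± 1.06 (edgeR adjusted p = 0.977), which turned to -0.030 with library totals in place of TMM. For P-DF it was 0.73 ± 1.05 (edgeR adjusted p = 0.685), and without replicate 5 of P-IWP2 on Day 12 it was 0.73 ± 0.13 (edgeR adjusted p = 0.000851). On a log2 scale of FPKM + 1, PPP1R3A minus the mean of the cardiomyocyte markers was -3.79 and -3.85 in NP-IWP2 libraries on Day 12 and -3.88 and -3.84 on Day 16. In P-DF libraries it was -3.33 and -3.48, then -3.3 and -2.97, so the P-DF libraries were closer to that mean on both days. On Day 16 the same held in P-DF for PPP1R3C, GYS1, GYG1, GBE1 and PYGB. PHKA1, at -5.75 and -5.49 in P-DF against -5.32 and -5.10 in NP-IWP2, and PYGM, at -3.27 and -3.09 against -2.46 and -2.27, lay further below the mean in P-DF, and UGP2 overlapped. In P-IWP2 both GYS1 and PYGB overlapped NP-IWP2. GYS1 was at -2.68 and -2.51 against -2.54 and -2.70, and PYGB at -0.74 and -0.49 against -0.70 and -0.90. For PPP1R3A the value was -5.88 in P-IWP2 Day 12 replicate 5 and -3.23 in replicate 6.

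Promoter sequences of the targeting subunits are shown because PPP1R3A and PPP1R3C belong to one family. Each was lowest in P-IWP2 Day 12 replicate 5, PPP1R3A by far more than PPP1R3C. RefSeq (GRCh38.p14) gave a start for 8 of the 9 members. The 250 bases before the PPP1R3A start are chr7:113919010-113919259 on the minus strand, and those before the PPP1R3C start are chr10:91633072-91633321, also on the minus strand. Neither stretch overlaps an annotated exon, and the RefSeq start of PPP1R3A lies inside the longer gene span of the deposited table. Capitals mark motif matches found on either strand. The motifs searched were the E-box, which reads CANNTG, the motif of GATA factors, which reads AGATAA, the core promoter box, which reads TATAAA, the GC box, which reads GGGCGG, and by name those of MEF2 and the CArG box.
PPP1R3A: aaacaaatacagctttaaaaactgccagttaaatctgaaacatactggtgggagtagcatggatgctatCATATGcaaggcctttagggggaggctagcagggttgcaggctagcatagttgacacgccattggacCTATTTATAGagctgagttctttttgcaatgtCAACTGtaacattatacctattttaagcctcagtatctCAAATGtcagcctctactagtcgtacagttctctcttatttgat
PPP1R3C: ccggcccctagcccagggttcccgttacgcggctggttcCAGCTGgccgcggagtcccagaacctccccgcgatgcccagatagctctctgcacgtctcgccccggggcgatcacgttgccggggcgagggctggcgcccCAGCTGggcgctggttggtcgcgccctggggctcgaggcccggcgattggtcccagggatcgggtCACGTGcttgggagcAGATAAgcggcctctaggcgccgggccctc
The PPP1R3A stretch held 1 match to the MEF2 motif, 114 bases before the start, which overlaps the single TATAAA match on the opposite strand, and 3 E-boxes. A MEF2 match was present in 2.8% of the 35116 promoter windows of this length, a TATAAA match in 10.7% and an E-box in 61.8%. The PPP1R3C stretch held 3 E-boxes and 1 GATA match, which 9.17% of windows held, and no MEF2 match. Neither held a GC box, present in 42.6% of windows, or a CArG box, present in 1.16%. The G and C content was 40.4% in the PPP1R3A stretch, with 13.4% of windows lower, and 72.4% in that of PPP1R3C, with 84.6% lower, where the median window had 58%. These are matches of letters and not measured binding.

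PPP1R3C, the more widely expressed targeting subunit (chromosome 10, 91628442 to 91633071, minus strand), was the most abundant of the 7 PPP1R3 genes. On Day 12 its level was 58.54 and 56.52 FPKM in NP-IWP2, 82.38 and 79.94 in P-DF, and 35.52 and 86.76 in P-IWP2 replicates 5 and 6. On Day 16 it was 64.50 and 60.45 FPKM in NP-IWP2, 147.75 and 158.82 in P-DF, and 195.12 and 165.27 in P-IWP2 cells. The groups on Day 16 did not overlap, and P-IWP2 Day 12 replicate 5 was the lowest library of all. The log2 fold change on Day 16 was 1.52 ± 0.37 in P-DF (edgeR adjusted p = 0.0252) and 1.80 ± 0.37 in P-IWP2 libraries (edgeR adjusted p = 0.0127), and each passed in 8 of the 12 fits that left out a library. On Day 12 it was 0.58 ± 0.36 for P-DF (edgeR adjusted p = 0.382), and 0.58 ± 0.11 without P-IWP2 replicate 5 (edgeR adjusted p = 0.00189).

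Within the PPP1R3 family, shares of the summed FPKM do not depend on the scaling between libraries. PPP1R3C made up 55.1% and 56.3% of the family in NP-IWP2 and 59.3% and 59.5% in P-DF libraries on Day 12, and 57.5% and 61.6% in P-IWP2 replicates 5 and 6. On Day 16 its share was 59.9% and 57.2% in NP-IWP2, 69.3% and 69.9% in P-DF and 76.7% and 77.1% in P-IWP2 libraries, with no overlap between treatments. PPP1R3A made up 7.83% to 12.9% of the family in 11 libraries and 0.469% in P-IWP2 Day 12 replicate 5, while the share of PPP1R3C there lay between those of the other Day 12 libraries.

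**Figure D2:**
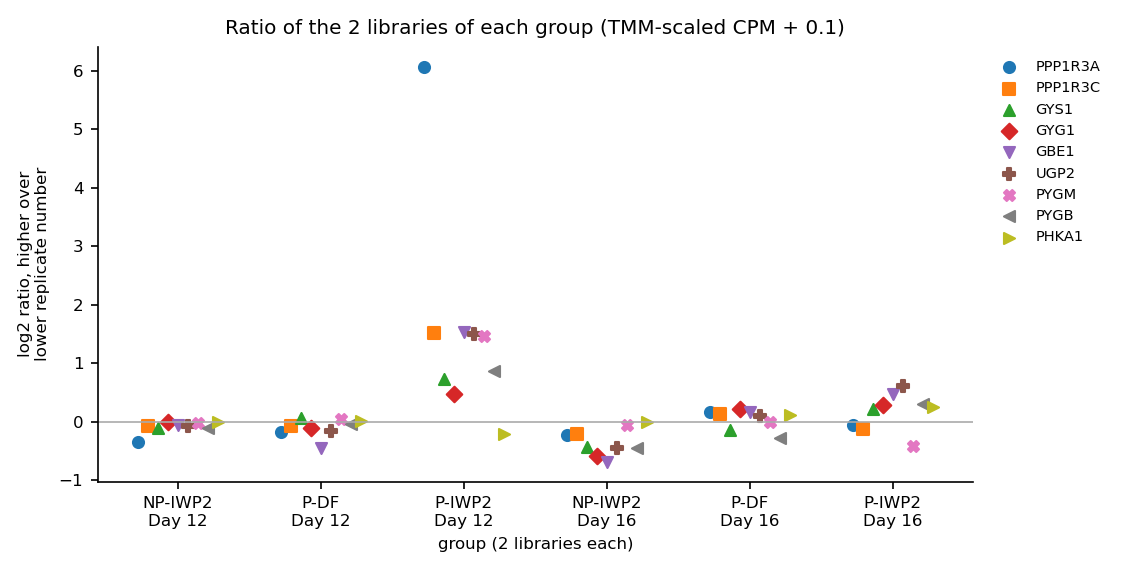
Log2 ratio of the library with the higher to that with the lower replicate number in each group, from TMM-scaled CPM with 0.1 added, for the 9 members. In P-IWP2 on Day 12 PPP1R3A reaches 6.07 and 8 of the 9 members lie above 0, while no member passes 0.69 in size in any other group.

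Most members were low in P-IWP2 Day 12 replicate 5, though by far less than PPP1R3A. On TMM-scaled counts (CPM, scaled to a common library total, with 0.1 added before a ratio), replicate 6 exceeded replicate 5 by 2-fold or more in 5 of the 9 members, PPP1R3A, PPP1R3C, GBE1, UGP2 and PYGM, where 9.23% of all genes tested did. PPP1R3A was 66.95-fold higher in replicate 6, GBE1 2.89-fold, PPP1R3C 2.85-fold, UGP2 2.82-fold and PYGM 2.74-fold. PYGB was 1.83-fold and GYS1 1.65-fold higher, and GYG1 1.39-fold. PHKA1 went the other way, at 22.5 CPM in replicate 6 and 25.9 in replicate 5. Because the members were picked with this library in view, these ratios are a description. In the other 5 groups the ratio of the 2 libraries stayed below 2-fold for each member, and the largest log2 ratio in size was 0.69, for GBE1 in NP-IWP2 cells on Day 16.

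Of the synthesis genes, GYG1, which encodes glycogenin-1, rose the most. On Day 12 it measured 5.34 and 5.41 FPKM in NP-IWP2, 9.52 and 9.0 in P-DF, and 7.37 and 8.76 in P-IWP2 cells. On Day 16 it measured 15.59 and 11.23 FPKM in NP-IWP2, 38.95 and 44.60 in P-DF, and 52.14 and 58.28 in P-IWP2 cells. None of the 3 treatments overlapped on Day 16, and each Day 16 group lay above its Day 12 group.

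The log2 fold change of GYG1 on Day 16 was 1.86 ± 0.22 in P-DF (edgeR adjusted p = 0.00127) and 2.31 ± 0.22 in P-IWP2 libraries (edgeR adjusted p = 0.000453), and it passed in all 16 alternatives for each. From Day 12 to Day 16 it was 1.44 ± 0.22 in NP-IWP2 (edgeR adjusted p = 0.0198) and 2.43 ± 0.23 in P-DF cells (edgeR adjusted p = 0.000649). On Day 12 the difference between P-DF and NP-IWP2 cells was 0.87 ± 0.22 (edgeR adjusted p = 0.0596), which fell short of the threshold, and without P-IWP2 replicate 5 it was 0.87 ± 0.17 (edgeR adjusted p = 0.00248). GYG1 took 23.1% and 21.7% of the summed FPKM of GYG1 and GYG2, the other glycogenin gene, in NP-IWP2 cells on Day 12 and 71.7% to 79.9% in the 4 passaged libraries on Day 16. The 2 NP-IWP2 libraries on Day 16 stood between, at 49.8% and 39.4%.

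One limit applies to GYG1. Of its 7551 exon bases on chromosome 3 (148991408 to 149031775, plus strand), 1649 or 21.8% overlap exons of HLTF on the opposite strand, and with no strand setting stated, reads there cannot be told apart. HLTF, a DNA translocase gene, also differed on Day 16, with a log2 fold change of 0.83 ± 0.10 in P-DF cells (edgeR adjusted p = 0.00112). In P-IWP2 cells it was 0.68 ± 0.10 (edgeR adjusted p = 0.00278), and over time in P-DF cells 0.88 ± 0.10 (edgeR adjusted p = 0.00104). It was -0.019 ± 0.096 in P-DF cells on Day 12 (edgeR adjusted p = 0.933) and 0.030 ± 0.096 over time in NP-IWP2 cells (edgeR adjusted p = 0.898). HLTF had 1199 to 2398 reads per library, where GYG1 had 669 to 8439.

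GYS1, the glycogen synthase of muscle (chromosome 19, 48968130 to 48993310, minus strand), had smaller fold changes than GYG1. On Day 12 it measured 30.98 and 29.25 FPKM in NP-IWP2, 36.64 and 39.27 in P-DF, and 24.60 and 34.78 in P-IWP2 cells. GYS1 on Day 16 measured 24.40 and 19.55 FPKM in NP-IWP2, 39.13 and 34.73 in P-DF, and 34.85 and 37.28 in P-IWP2 cells. P-DF libraries lay above NP-IWP2 libraries on both days, and on Day 16 the passaged treatments overlapped each other. The log2 fold change on Day 16 was 0.97 ± 0.23 in P-DF (edgeR adjusted p = 0.0213) and 0.99 ± 0.23 in P-IWP2 libraries (edgeR adjusted p = 0.0190), and each passed in 9 of the 12 fits that left out a library. Neither time course passed, at -0.33 ± 0.22 in NP-IWP2 (edgeR adjusted p = 0.449) and 0.22 ± 0.22 in P-DF libraries (edgeR adjusted p = 0.553), and the latter turned to -0.040 with library totals. GYS2, the synthase of liver, stayed at 0 to 0.02 FPKM in all 12 libraries, also in the NP-IWP2 libraries with hepatic markers.

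GBE1, the branching enzyme (chromosome 3, 81489703 to 81761645, minus strand), measured 6.21 and 6.09 FPKM in NP-IWP2, 12.96 and 9.69 in P-DF, and 4.90 and 12.16 in P-IWP2 cells on Day 12. GBE1 on Day 16 measured 10.24 and 6.85 FPKM in NP-IWP2, 19.24 and 21.25 in P-DF, and 19.04 and 24.33 in P-IWP2 cells. NP-IWP2 and P-DF libraries did not overlap on either day. The Day 16 log2 fold change was 1.46 ± 0.43 in P-DF (edgeR adjusted p = 0.0473) and 1.62 ± 0.43 in P-IWP2 libraries (edgeR adjusted p = 0.0315). In the 12 fits that left out a library the first passed in 2, those without either P-IWP2 library of Day 12, with an edgeR adjusted p of up to 0.274, and the second in 4, those without a P-IWP2 or P-DF library of Day 12, with an adjusted p of up to 0.217.

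UGP2, which makes UDP-glucose (chromosome 2, 63840952 to 63891562, plus strand), was the synthesis gene with the highest level. On Day 12 its level was 72.43 and 70.03 FPKM in NP-IWP2, 73.13 and 66.66 in P-DF, and 28.87 and 69.82 in P-IWP2 cells. UGP2 on Day 16 measured 85.78 and 67.35 FPKM in NP-IWP2, 101.04 and 106.44 in P-DF, and 119.29 and 166.39 in P-IWP2 cells. On Day 16 the passaged libraries lay above the static ones, but the log2 fold changes of 0.66 ± 0.40 in P-DF (edgeR adjusted p = 0.294) and 1.18 ± 0.41 in P-IWP2 libraries (edgeR adjusted p = 0.0754) did not pass. Without P-IWP2 Day 12 replicate 5 they were 0.66 ± 0.18 (edgeR adjusted p = 0.0140) and 1.18 ± 0.19 (edgeR adjusted p = 0.000284). On Day 12 the P-DF and NP-IWP2 libraries overlapped, and the log2 fold change of 0.061 turned to -0.027 with library totals.

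**Figure D3:**
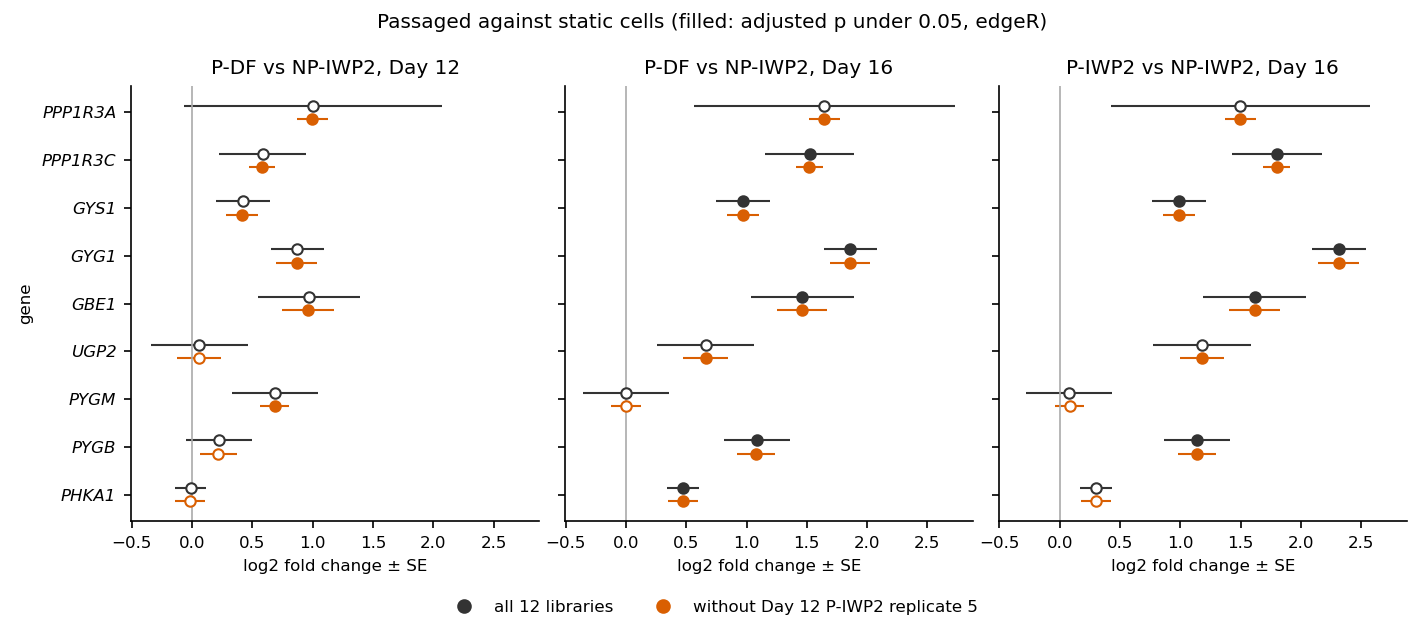
Log2 fold changes of the 9 members (points, with SE as bars) in the 3 comparisons of passaged with static cells, by edgeR with all 12 libraries (dark) and without P-IWP2 Day 12 replicate 5 (orange). Filled points have an adjusted p under 0.05. For PPP1R3A on Day 12 the log2 fold change is 1.00 in both fits, with an SE of 1.07 and 0.13.

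The phosphorylase genes moved in different ways. PYGM, the phosphorylase of muscle (chromosome 11, 64746389 to 64759974, minus strand), measured 34.75 and 34.63 FPKM in NP-IWP2, 51.16 and 54.12 in P-DF, and 23.34 and 54.81 in P-IWP2 cells on Day 12. PYGM on Day 16 measured 25.79 and 26.66 FPKM in NP-IWP2, 22.63 and 22.13 in P-DF, and 27.22 and 18.85 in P-IWP2 cells. P-DF libraries thus lay above NP-IWP2 libraries on Day 12 and below them on Day 16 in FPKM. After TMM scaling the Day 16 log2 fold change was 0.0025 ± 0.36 (edgeR adjusted p = 0.998), while library totals gave -0.23, so the direction on Day 16 rests on the scaling.

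On Day 12 the log2 fold change of PYGM was 0.69 ± 0.36 (edgeR adjusted p = 0.293), and 0.68 ± 0.12 without P-IWP2 replicate 5 (edgeR adjusted p = 0.00110). From Day 12 to Day 16 it was -0.98 ± 0.36 in P-DF cells (edgeR adjusted p = 0.104), and -0.97 ± 0.12 without that library (edgeR adjusted p = 7.80e-05). In NP-IWP2 cells it was -0.29 ± 0.36 (edgeR adjusted p = 0.696). The difference between these time courses was -0.69 ± 0.50 (edgeR adjusted p = 0.631), and without P-IWP2 Day 12 replicate 5 it was -0.68 ± 0.17 (edgeR adjusted p = 0.0276).

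PYGB, the phosphorylase first described in brain (chromosome 20, 25248085 to 25298012, plus strand), measured 72.08 and 68.20 FPKM in NP-IWP2, 77.13 and 77.04 in P-DF, and 52.61 and 82.40 in P-IWP2 cells on Day 12. PYGB on Day 16 measured 89.55 and 70.40 FPKM in NP-IWP2, 160.52 and 129.93 in P-DF, and 136.24 and 154.26 in P-IWP2 cells. The Day 16 passaged libraries overlapped each other and lay above both static libraries. The Day 16 log2 fold change was 1.08 ± 0.27 in P-DF (edgeR adjusted p = 0.0287) and 1.14 ± 0.27 in P-IWP2 libraries (edgeR adjusted p = 0.0229), and it passed in 4 and 8 of the 12 fits that left out a library. From Day 12 to Day 16 PYGB rose by 1.17 ± 0.27 on the log2 scale in P-DF cells (edgeR adjusted p = 0.0247) and differed by 0.31 ± 0.27 in NP-IWP2 cells (edgeR adjusted p = 0.566).

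As a share of the summed FPKM of PYGM, PYGB and PYGL, the phosphorylase of liver, PYGM was 29.9% and 31.0% in NP-IWP2 and 36.6% and 37.3% in P-DF cells on Day 12. In P-IWP2 replicates 5 and 6 on Day 12 it was 28.9% and 36.7%, so replicate 5 lay below the NP-IWP2 libraries and replicate 6 above. On Day 16 it was 19.3% and 24.0% in NP-IWP2, 10.8% and 12.5% in P-DF and 14.6% and 9.46% in P-IWP2 libraries. The difference of P-DF from NP-IWP2 was 6.52 percentage points on Day 12 and -9.999 points on Day 16, with no overlap on either day. Over both days the mean difference was -1.74 points (two-sided exact permutation test within days, p = 0.556 over 36 arrangements, which allow no p below 0.0556), since the 2 days offset each other. PYGB took 62.0% and 61.1% of the sum in NP-IWP2 and 55.2% and 53.1% in P-DF cells on Day 12. It took 67.1% and 63.3% in NP-IWP2 cells and 73.1% to 77.4% in the 4 passaged libraries on Day 16. PYGL measured 8.85 to 14.01 FPKM in the NP-IWP2 and P-DF libraries on Day 12, and 22.95 to 26.11 in the passaged libraries on Day 16 against 18.08 and 14.23 in NP-IWP2 cells.

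**Figure D4:**
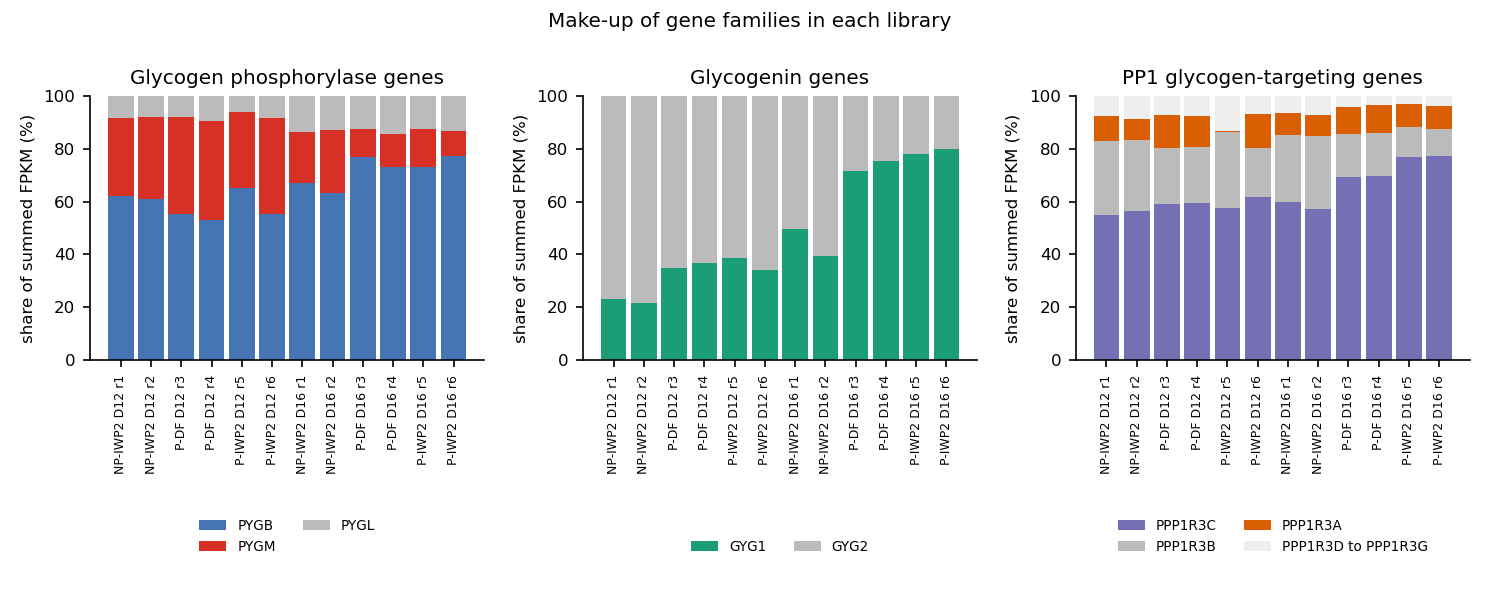
Share of each gene in the summed FPKM of its family, in percent, for every library (bars, D for day and r for replicate), in the phosphorylase, glycogenin and PP1 glycogen-targeting families. The PYGM share falls from 36.6% and 37.3% to 10.8% and 12.5% in P-DF cells between the days, the GYG1 share reaches 71.7% to 79.9% in passaged cells on Day 16, and PPP1R3A takes 0.469% of its family in P-IWP2 Day 12 replicate 5.

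PHKA1, the muscle form of the alpha subunit of phosphorylase kinase (chromosome X, 72578814 to 72714319, minus strand), was the least abundant member by the mean of each group. It measured 4.60 and 4.64 FPKM in NP-IWP2, 4.25 and 4.37 in P-DF, and 4.97 and 3.69 in P-IWP2 cells on Day 12, where replicate 5 was the highest library of the series. On Day 16 it measured 2.70 and 2.90 FPKM in NP-IWP2, 3.21 and 3.41 in P-DF, and 2.71 and 2.96 in P-IWP2 cells. The Day 16 groups of NP-IWP2 and P-DF cells did not overlap, and the log2 fold change of 0.47 ± 0.13 passed (edgeR adjusted p = 0.0412). It was 0.24 with library totals and 0.48 without the filter on low counts, and passed in neither (edgeR adjusted p = 0.308 and 0.180), and it passed in 3 of the 12 fits that left out a library. In P-IWP2 cells it was 0.30 ± 0.13 (edgeR adjusted p = 0.146). From Day 12 to Day 16 PHKA1 differed by -0.61 ± 0.13 in NP-IWP2 cells (edgeR adjusted p = 0.0523), just short of the threshold, and it passed without P-IWP2 Day 12 replicate 5 (edgeR adjusted p = 0.00516).

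No member differed detectably between the passaged treatments, with and without IWP2, on Day 16. Comparing P-IWP2 with P-DF, 0 of the 9 members were called by edgeR, where 0% of all genes tested were, and 0 had an unadjusted p under 0.05, against 8.03% of all genes. DESeq2 and limma also called 0, as did edgeR without P-IWP2 Day 12 replicate 5, where 2.49% of all genes were called. In FPKM, 3 members lay higher and 2 lower in P-IWP2 cells with no overlap of the libraries, against 18.2% and 23.5% of all genes. The widest log2 differences were 0.52 ± 0.40 for UGP2 and 0.45 ± 0.21 for GYG1, both with the P-IWP2 libraries above the P-DF libraries in FPKM, and that of PPP1R3A was -0.15 ± 1.05.

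Across time, 1 of the 9 members, GYG1, passed in NP-IWP2 cells, where 1.98% of all genes tested did (0.877% higher, 1.1% lower), and 2, GYG1 and PYGB, passed in P-DF cells, where 13.6% did (6.79% higher, 6.81% lower). With library totals the share of all calls that were higher moved from 44.3% to 32.0% in NP-IWP2 and from 49.9% to 21.0% in P-DF, and in P-DF the members called were 2 higher and 1, PYGM, lower. The call in NP-IWP2 cells was lost without either NP-IWP2 Day 12 library or NP-IWP2 Day 16 replicate 1, and 1 member was called in P-DF cells without any one of the NP-IWP2 Day 12, P-DF Day 12 or P-DF Day 16 libraries. In FPKM, the days did not overlap for 3 members higher and 3 lower in NP-IWP2 (24% and 40.4% of all genes) and for 6 higher and 2 lower in P-DF (18.2% and 52.1%). Without P-IWP2 Day 12 replicate 5 the counts were 2 and 7, against 17.1% and 29.2% of all genes. For the difference between P-DF and NP-IWP2 cells in their change over time, 0 of the 9 were called by edgeR, against 0.482% of all genes (0.174% higher, 0.308% lower), of which 36.2% were higher, or 21.0% with library totals. At an unadjusted p under 0.05 there were 2 members, GYG1 and PHKA1, against 12.4% of all genes, and DESeq2 and limma called 0. Without P-IWP2 Day 12 replicate 5 this comparison called PPP1R3A, PPP1R3C, GYG1 and PYGB higher and PYGM lower, against 7.62% of all genes. PPP1R3C had the largest log2 value of the 4 after GYG1, 0.94 ± 0.15 (edgeR adjusted p = 0.00241).

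A wider list held 41 other glycogen genes, of which 40 were in the table and 37 passed the filter on low counts. On Day 12, 0 of the 37 were called in edgeR, against 4.01% of all genes, and 10 had an unadjusted p under 0.05, against 21.7%. On Day 16, 5 of 37 were higher in P-DF and 6 of 37 in P-IWP2 libraries, and 0 were lower in either. Of all genes, 15.3% and 17.1% were called in these comparisons, 5.39% and 7.15% higher and 9.86% and 9.95% lower. With library totals this list had 2 higher and 3 lower in P-DF, and 2 higher and 1 lower in P-IWP2 cells. All genes then had 558 higher and 2870 lower in P-DF, and 733 higher and 3422 lower in P-IWP2 cells. The split of this list thus moved with the scaling, while the calls of the members did not change sign. The median log2 fold change of the 37 genes was 0.30 and 0.36, below that of the members. Without P-IWP2 Day 12 replicate 5, 7 were higher and 3 lower in P-DF on Day 12, 14 higher and 1 lower in P-DF on Day 16, and 19 higher and 0 lower in P-IWP2 on Day 16, against 21.9%, 32.4% and 34.8% of all genes called.

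PRKAA2, the alpha-2 catalytic subunit of AMPK, an energy sensor that phosphorylates glycogen synthase, was called in each passaged treatment on Day 16. It measured 7.71 and 5.96 FPKM in NP-IWP2, 17.41 and 17.49 in P-DF and 18.70 and 16.46 in P-IWP2 libraries, with log2 fold changes of 1.58 ± 0.16 (edgeR adjusted p = 0.000595) and 1.63 ± 0.16 (edgeR adjusted p = 0.000477). On Day 12 it measured 9.38 and 8.65 FPKM in NP-IWP2 and 8.42 and 9.84 in P-DF cells, which overlapped. STBD1, which binds glycogen, rose by 1.29 ± 0.36 in P-DF (edgeR adjusted p = 0.0400) and 1.2 ± 0.36 in P-IWP2 libraries (edgeR adjusted p = 0.0477). PPP1R3G, a further PP1 targeting subunit, rose by 1.70 ± 0.48 in P-DF cells (edgeR adjusted p = 0.0413), from 0.42 and 0.36 to 1.14 and 1.03 FPKM.

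Over time in P-DF cells, 4 of the 37 rose and 0 fell, against 6.79% and 6.81% of all genes. PPP1R3G rose by 2.28 ± 0.50 (edgeR adjusted p = 0.0185), STBD1 by 1.93 ± 0.37 (edgeR adjusted p = 0.0113) and PRKAA2 by 1.19 ± 0.16 (edgeR adjusted p = 0.00248). With library totals 3 rose and 3 fell, where 672 of all genes rose and 2530 fell, and without P-IWP2 Day 12 replicate 5 with TMM 9 rose and 3 fell, against 29.2% of all genes called. In NP-IWP2 cells 1 of the 37 was called, against 1.98% of all genes. It was PRKAB2, the beta-2 subunit of AMPK, which fell by 0.73 on the log2 scale (SE 0.14, edgeR adjusted p = 0.0397).

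The genes most like PPP1R3A were ranked by the Pearson correlation of log2(FPKM + 1) among 17139 genes with a symbol, as a description over libraries that share treatments and depth. Over the 12 libraries the 5 highest included TMOD1 (r = 0.996), MT-ND1 (0.988), CTNNA3 (0.982) and MYL3 (0.979). TMOD1 caps actin thin filaments in muscle and MYL3 is a ventricular myosin light chain. Over the 11 libraries without P-IWP2 Day 12 replicate 5 the 5 highest included TMOD1 (0.991), RAB3IP (0.982), POPDC3 (0.981) and MT-CO3 (0.981), so TMOD1 stood on both lists. TMOD1 measured 19.05 FPKM in replicate 5, its lowest library, and up to 82.35 elsewhere. RAB3IP, which entered the list without that library, measured 20.65 FPKM in it, near its highest value of 21.76. Among the members the correlation with PPP1R3A was highest for UGP2 (0.834) and PPP1R3C (0.818) over 12 libraries and for GBE1 (0.891) and PPP1R3C (0.881) over 11. It was lowest for PHKA1 (-0.487 and -0.210), and PYGM gave 0.164 and -0.101.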

How the data were processed

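The authors trimmed reads with cutadapt 1.9.1, aligned them to hg38 with HISAT2 2.0.1 and counted them per gene with HTSeq 0.6.1, per the labels and the methods. The deposited counts are not normalized, and the authors' FPKM equal these counts per exon length and library total, within 0.01 for 100% of values. The labels name a SMRTbell preparation kit, used for long reads, beside these tools for short reads, and the read length is not given in the sources used here, so FPKM and the family shares assume that counts grow with exon length. The annotation release and strand setting are not given in the sources used here. The 9 gene positions match GENCODE 44. The 9 members and all lists were chosen with earlier results of these data known.

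Counts were tested with edgeR 4.0.16 in R 4.3.3 (TMM, filterByExpr, quasi-likelihood, Benjamini-Hochberg over 19505 genes, threshold 0.05), in one model of 6 groups with all 12 libraries. SE is the log2 fold change divided by the square root of F. Contrasts with P-IWP2 on Day 12 were not tested. Alternatives were DESeq2 1.42.0, library totals, no filter, limma 3.58.1 on log2(FPKM + 1) with a mean FPKM of at least 1, a replicate block, and each library left out. FPKM carries no correction for composition, so it can differ in direction from TMM-scaled values. A count of 0 allows up to 3 reads, counting error only. Python 3.11.15 (pandas 2.3.3, matplotlib 3.10.9) served for tables and plots.

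Genes named are the 9 members, PYGL, GYS2, the 3 called genes of the wider list with the largest change per comparison, and the 5 most like PPP1R3A. GYG2, HLTF and the markers named were chosen after their values were seen. Some genes that meet this rule are not reported here.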

Additional observations from a re-analysis of the deposited data

Results flagged for a closer look

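For PRKAA2 the difference between P-DF and NP-IWP2 cells, which differ in both passaging and IWP2, changed between the days. The log2 fold change was 1.47 ± 0.22 higher on Day 16 than on Day 12 (edgeR's quasi-likelihood test of the interaction, Benjamini-Hochberg adjusted p = 0.0340). With the replicate block, 0 glycogen genes passed this test. The shares of PYGM and PYGB in the phosphorylase genes differed between the P-DF and NP-IWP2 libraries in one direction on Day 12 and in the other on Day 16, in all 8 of these libraries. For PYGM the difference between P-DF and NP-IWP2 cells moved by -16.5 percentage points from Day 12 to Day 16, and for PYGB, which makes up most of the remainder, by 17.1 points. The difference between the days in these shares was not tested.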

How the results depend on the processing

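Most values kept their direction and side of the threshold: 236 of 279 gene values under other tools, scalings and filters, and 636 of 756 with a library left out. Library totals in place of TMM gave -0.027 for UGP2 in P-DF against NP-IWP2 cells on Day 12, -0.23 for PYGM on Day 16 and -0.19 in P-IWP2 cells, -0.034 for GYS1 between the passaged treatments, -0.030 for PPP1R3A over time in NP-IWP2 and -0.040 for GYS1 over time in P-DF cells. Limma gave -0.028, -0.22, -0.20, -0.032, -0.021 and -0.040 for these, and DESeq2 -0.0061 for PYGM in P-DF cells on Day 16. For P-DF cells on Day 12, members called went from 0 to 1 with DESeq2, 1 with library totals and 5 without the filter, and glycogen genes, members and others together, from 0 to 3, 1 and 14. Without the filter, glycogen genes on Day 16 went from 11 to 18 in P-DF and from 11 to 17 in P-IWP2 cells. Over time in NP-IWP2 cells, glycogen genes went from 2 to 4 with DESeq2 and 6 without the filter, and members from 1 to 2 with DESeq2, no filter or limma. Over time in P-DF cells, glycogen genes went from 6 to 11 with DESeq2 and 17 without the filter, and members from 2 to 4 and 7. For the difference of time courses, glycogen genes went from 1 to 2 with DESeq2 and 6 without the filter, and members from 0 to 3 without the filter. The cause of these shifts was not tested.

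With each library left out, members called ranged from 0 to 6 (P-DF, Day 12), 1 to 8 (P-DF, Day 16), 1 to 7 (P-IWP2, Day 16), 0 to 0 (between passaged treatments), 0 to 2 (time, NP-IWP2), 1 to 7 (time, P-DF) and 0 to 5 (difference of time courses). Glycogen genes ranged from 0 to 16, 2 to 23, 2 to 26, 0 to 0, 0 to 8, 2 to 19 and 0 to 9. The highest counts came without either P-IWP2 Day 12 library, where the pair adds no spread. A lone library left in a group was assumed to vary like the others. The PYGM share difference ranged from -2.90 to -0.58 points, and was -1.84 from counts not divided by length. Directions turned for PPP1R3A over time in NP-IWP2 cells (-0.075 to 0.27), UGP2 over time there (-0.024 to 0.44) and in P-DF cells on Day 12 (-0.043 to 0.14), PYGM on Day 16 in P-DF (-0.032 to 0.036) and P-IWP2 cells (-0.13 to 0.26), and, between the passaged treatments, GBE1 (-0.088 to 0.37), GYS1 (-0.082 to 0.12), PYGB (-0.090 to 0.20) and PYGM (-0.14 to 0.28). Their adjusted p stayed above 0.05.

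The replicate numbers did not pair the libraries: same-numbered libraries of the 2 days had correlations of deviations of 0.155, -0.0042 and -0.025. With the replicate block, glycogen genes called were 1 over time in NP-IWP2 cells and 0 for the difference of time courses, and members called were 1, 2 and 0. Each group had 2 libraries, and 3 reads correspond to 0.156 to 0.202 CPM.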
